A study of Mus musculus with 2 samples.

Results

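The arginine and polyamine metabolism genes of newborn mouse skin were taken as a set of 8 genes, *Nos2*, *Odc1*, *Sat1*, *Ass1*, *Asl*, *Srm*, *Sms* and *Azin1*, out of 30133 genes named on the array. A gene entered the set by its name alone, and every probe of the array design that carried 1 of these names was used, 17 probes in all, each printed as 1 spot. Skin was compared between *Pnpla1*+/+ (wild-type) and *Pnpla1*-/- (knockout) mice of the C57BL/6N background at P0, the day of birth. *Pnpla1* encodes a lipase-like enzyme needed to make the acylceramides of the epidermal water barrier. The knockout mice were homozygous for an allele of the knockout-first type after flippase had removed its reporter and selection cassettes, the loss of *Pnpla1* was global and not limited to 1 cell type, and the controls were wild-type littermates. Each genotype was measured on 1 array, labelled with 1 dye (Cy3) and holding total RNA pooled from 6 animals, so that replicates are missing for every value. The genotypes were therefore compared without a test, and each difference describes these 2 pools. The sample labels name the tissue skin, whereas the deposited design text speaks of epidermis.

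Arginine stands at a branch point. It can be split into urea and ornithine, nitric oxide synthases turn it into nitric oxide and citrulline, and argininosuccinate synthase and lyase rebuild it from citrulline. Ornithine decarboxylase makes putrescine from ornithine, spermidine synthase and spermine synthase extend putrescine to the larger polyamines, and spermidine/spermine acetyltransferase marks these for breakdown or export. In skin, polyamines are known for their part in keratinocyte growth and in the hair follicle.

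An array held 39429 probes on 43020 spots, controls not counted. On the wild-type array 71.7% of these spots were well above background and on the knockout array 73.3%, and none was saturated. The number of arrays limits the precision. Intensities are the deposited background-subtracted values of a spot, in arbitrary units and not scaled between arrays. For differences, each intensity was divided by the 75th percentile of its array, 2108 in wild-type and 1734 in knockout skin, and taken to log2, and differences are knockout minus wild type. A gene with more than 1 probe was represented by its brightest. The targeted gene was checked first. *Pnpla1* read 579 in wild-type and 114 in knockout skin, a difference of -2.07 on the log2 scale. The knockout reading was still well above background, whereas the authors report absence of the mRNA by quantitative PCR.

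All 17 probes of the 8 genes were well above background on both arrays, and none of their spots carried an outlier flag. *Sat1* was at least 2-fold higher in the knockout pool, none of the 8 was at least 2-fold lower, and the other 7 genes differed by less than 2-fold. A difference could be given for 22374 genes of the array, and 6.7% of these were higher by 2-fold or more and 3.04% lower by 2-fold or more. Of all genes past 2-fold, 68.8% were higher, a share of 41.2% without scaling and of 27.9% with the arrays centred on spike-in RNA. Over the 8 genes the median difference was 0.14, against 0.00 over all genes, whose quartiles were -0.26 and 0.32. *Sat1*, *Nos2* and, by a narrow margin, *Asl* lay above the upper quartile, *Srm* and *Sms* lay below the lower one, and *Ass1*, *Azin1* and *Odc1* lay between them. The plot of levels by genotype shows these pairs.

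**Figure D1:**
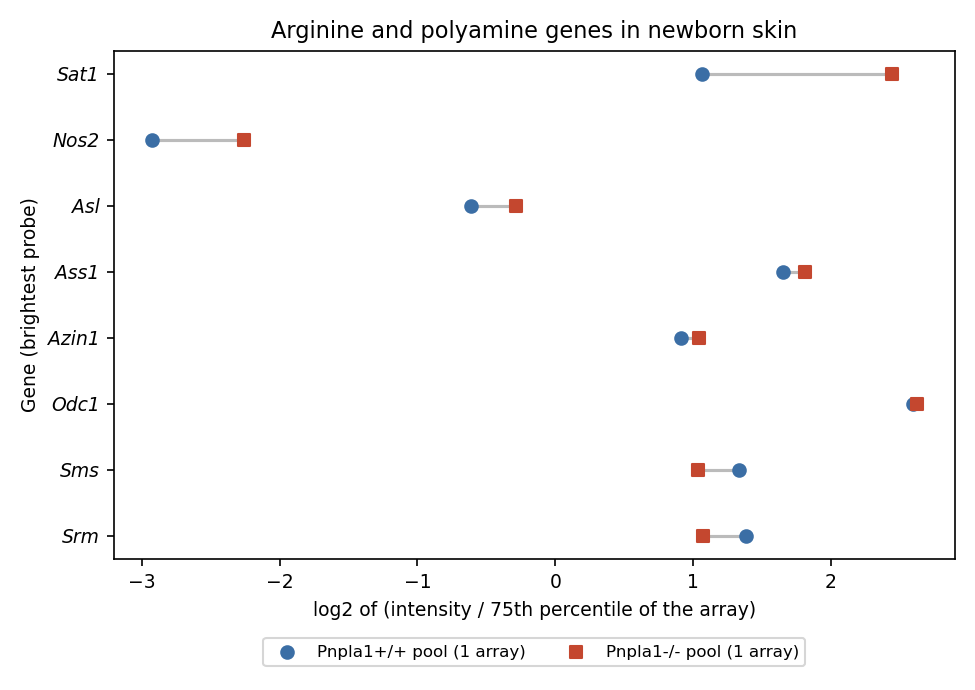
Log2 of the intensity of each gene's brightest probe over the 75th percentile of its array, with 1 point for the *Pnpla1*+/+ pool (circles) and 1 for the *Pnpla1*-/- pool (squares), joined by a line for each gene and ordered by the difference. *Sat1* differed most, from 1.06 to 2.44, *Srm* and *Sms* differed the other way, from 1.38 to 1.07 and from 1.33 to 1.04, and positions along the axis are not comparable between genes because each probe binds with its own strength.

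*Nos2*, the inducible nitric oxide synthase, was read by 1 probe, at chr11:78773567-78773626 on the mm9 coordinates of the array design, which are used for every probe given here. It read 278 in wild-type and 361 in knockout skin. After scaling the knockout pool was 1.58-fold higher, a difference of 0.66, which is under the 2-fold mark. It ranked 2662nd from the highest of 22374 differences. In bulk skin, fewer cells of a type and less RNA per cell cannot be told apart, and this holds for every gene given here.

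The enzymes that rebuild arginine from citrulline differed little. *Ass1*, argininosuccinate synthase, read 6625 in wild-type and 6086 in knockout skin with the probe at chr2:31376068-31376127, a difference of 0.16 after scaling. Its other probe read 2485 and 2381, a difference of 0.22. *Asl*, argininosuccinate lyase, read 1382 and 1423, a difference of 0.32. The probe of *Asl* spans chr5:130487964-130488549, which is 586 bases for a probe of 60, as for a probe that crosses from exon to exon. Intensities before scaling were lower in the knockout pool for *Ass1* and close to equal for *Asl*, and the sign of both differences turned negative when the arrays were centred on spike-in RNA, with -0.27 for *Ass1* and -0.10 for *Asl*. Without scaling *Ass1* gave -0.12.

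The first step of polyamine synthesis showed small differences of either sign. *Odc1*, ornithine decarboxylase, is the step at which synthesis is mainly controlled. Its brightest probe, at chr12:17557831-17557890, read 12751 in wild-type and 10690 in knockout skin, a difference of 0.03 after scaling. The SD of a difference over repeated spots of 1 probe was 0.09, from 385 probes with at least 8 spots, and it covers spots only, not mice. The other 3 probes of *Odc1* gave -0.02, -0.18 and 0.10. One of them is placed by the array design on chromosome 17 and shares a run of 46 bases with the brightest probe, so these 2 are not separate measurements. The probe that gave 0.10 shares a run of 22 bases with each of these 2, so it is not fully separate either. *Azin1*, the antizyme inhibitor that protects ornithine decarboxylase from degradation, read 3979 and 3581 with its brightest probe, at chr15:38420056-38420115, a difference of 0.13. Its other probes disagreed in sign. The middle one read 1022 and 722, a difference of -0.22, and the dimmest read 60.3 and 93.0, a difference of 0.91. The sign of *Azin1* turned negative without scaling and with spike-in centring, and *Odc1* kept its sign under 4 of the 10 other settings.

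Both polyamine synthases were lower in the knockout pool with every probe, by less than 2-fold. *Srm*, spermidine synthase, read 5497 in wild-type and 3653 in knockout skin at chr4:147968433-147968492, a difference of -0.31. Its other probe gave -0.38. *Sms*, spermine synthase, read 5311 and 3559 at chrX:153883630-153883689, a difference of -0.30, and its other probes gave -0.44 and -0.53. All 5 probes of the pair therefore pointed the same way, with differences from -0.53 to -0.30. *Srm* and *Sms* stayed negative under each of the 10 other settings, but most of these could not turn a negative sign. Median scaling, no scaling and spike-in centring lower every gene. The deposited ratios, the filters on dim probes and the flagged spots leave these probes nearly unchanged. Quantile normalization and normexp could turn it, and the highest values, -0.30 for *Srm* and -0.27 for *Sms*, came with normexp.

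The acetyltransferase at the start of polyamine breakdown was higher. *Sat1*, the enzyme whose products leave the cell or are oxidized, read 4404 in wild-type and 9428 in knockout skin. After scaling this was 2.09 and 5.44 times the 75th percentile, so that the knockout pool was 2.60-fold higher, a difference of 1.38, the 876th counted from the highest. *Sat1* has 1 probe, at chrX:151647856-151647915. Centred on spike-in RNA the difference was 0.95, below 2-fold.

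*Sat1* and *Sms* are on the X chromosome, and the pools differed in sex-linked genes. *Xist*, transcribed from the inactive X chromosome of females, read 853 in wild-type and 1528 in knockout skin, a difference of 1.12, and the Y-linked genes *Ddx3y* and *Eif2s3y* each gave -2.19. Over 638 genes of the X chromosome the median difference was -0.06, with 5.33% at least 2-fold higher, and over 17155 autosomal genes it was -0.01, with 7.22% at least 2-fold higher. The part of the sex of the animals in the differences of *Sat1* and *Sms* was not tested.

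The scanner software also estimates an error for each spot, about 10% of the intensity for most probes here. That gives about 0.20 on the log2 scale for a difference. The dimmest *Azin1* probe had larger errors, 14.2% in wild-type and 11.6% in knockout skin, which gives 0.26. By this estimate the difference of *Sat1* was 6.76 times its error. *Nos2* reached 3.17 times, and so did the dimmest *Azin1* probe with 3.43 times. The values for *Asl*, for both *Srm* probes and for the brightest *Sms* probe were between 1.45 and 1.84, those of the dimmer *Sms* probes were 2.16 and 2.61, and those of *Odc1* and *Ass1* did not pass 1.08. Because the estimate was nearly the same for most probes, these multiples mostly restate the size of each difference. The SD of a difference measured over repeated spots was smaller, 0.09. The estimate concerns the reading of a spot and says nothing of the spread between mice.

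**Figure D2:**
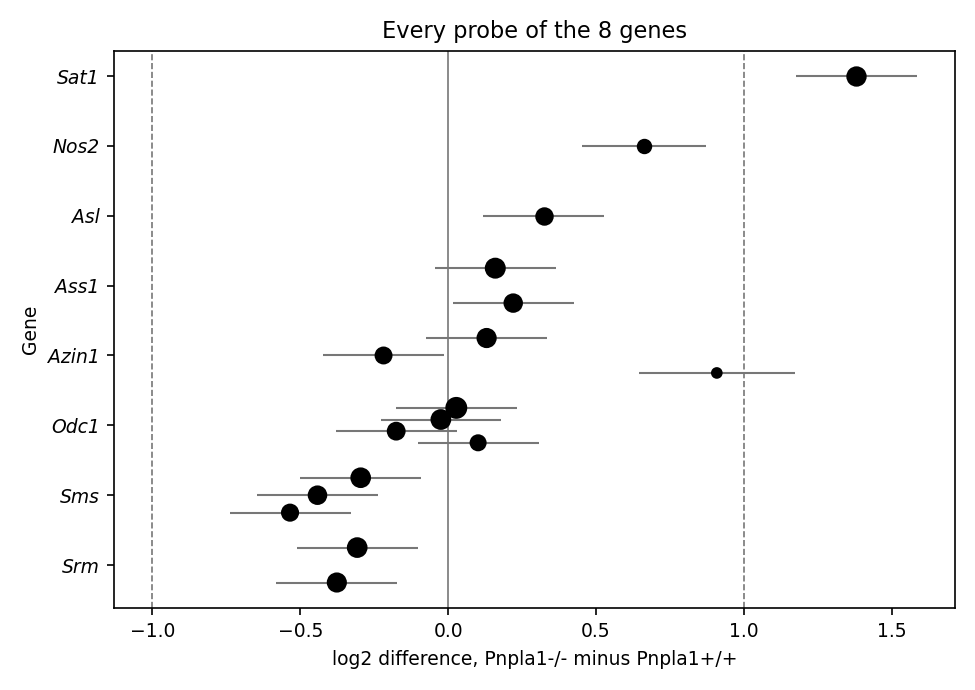
Log2 difference, *Pnpla1*-/- minus *Pnpla1*+/+, for each of the 17 probes, with bars for the error of the difference from the scanner software's estimate, larger points for brighter probes, and dashed lines at 2-fold. Probes of *Srm* and *Sms* all lie below 0, those of *Odc1* lie on both sides of it between -0.18 and 0.10, and the dimmest *Azin1* probe stands apart at 0.91.

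The remaining genes of the pathway were taken from 7 lists holding 58 genes. Of these, 57 had a probe and 52 a difference. Only *Smox* and *Gch1* were at least 2-fold higher, which is 3.85% of the 52 against 6.7% of all genes, and none was at least 2-fold lower as reported, against 3.04% of all genes. The number lower was 3 (5.77%) with median scaling and with quantile normalization, against 3.58% and 3.99% of all genes, and 5 (9.62%) without scaling, against 6.37%. It was 6 (11.54%) with spike-in centring, against 9.68%, and 1 of 57 (1.75%) with no filter on dim probes, against 3.67%. With no filter the number higher was 3 of 57, *Slc22a3* being added, against 10.1% of all genes, and it was 2 under the other settings. Their median was -0.22, with 38 differences below 0 and 14 above.

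*Smox*, spermine oxidase, acts beside *Sat1* in breakdown and returns spermine to spermidine with release of hydrogen peroxide. It read 7727 in wild-type and 26451 in knockout skin, 4.16-fold higher with a difference of 2.06, and its other probe read 1887 and 6471, also 2.06. *Sat2*, a relative of *Sat1*, lay at the other end of the list of breakdown and transport, with 1102 and 641 and a difference of -0.50. A dimmer *Sat2* probe, at 122 and 48.1, gave -1.06, past 2-fold, and the mean over both was -0.78. This list had 7 genes with a difference of 10, a median of -0.07 and 5 differences below 0, and *Aoc1*, *Slc22a2* and *Slc22a3* were not well above background on either array.

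*Gch1*, GTP cyclohydrolase, starts the synthesis of tetrahydrobiopterin, the cofactor of nitric oxide synthases. It read 2470 and 7515, 3.70-fold higher in the knockout pool with a difference of 1.89, while a much dimmer probe read 162 and 211, a difference of 0.67. *Gchfr*, which encodes the feedback regulator of that enzyme, read 594 and 293, a difference of -0.74. *Ddah2*, which breaks down an inhibitor of nitric oxide synthases, gave -0.72, and *Nos3*, the endothelial synthase, 0.74. *Gchfr* and *Ddah2* were at least 2-fold lower without scaling (-1.02 and -1.001) and with spike-in centring (-1.16 and -1.15). The 9 genes of nitric oxide and its cofactor had a median of -0.25.

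The list for the other uses of ornithine and arginine, toward proline, glutamate, agmatine and creatine, was below 0 in all 10 genes, as reported and under each of the 10 other settings. Median scaling, no scaling and spike-in centring lower every gene, so they could not turn these signs. The filters on dim probes, the flagged spots and the deposited ratios left the list median unchanged or nearly so. The median was -0.41, and the range ran from -0.97 for *Pycr1*, a pyrroline-5-carboxylate reductase of proline synthesis, to -0.07 for *Gatm*, which starts creatine synthesis. *Agmat*, agmatinase, which makes putrescine from agmatine, read 503 and 213, a difference of -0.96. None reached 2-fold as reported, but *Pycr1* and *Agmat* each did under 4 of the 10 other settings, with -1.04 and -1.03 under median scaling. A dimmer probe of *Pycr1*, at 62.8 and 64.7, gave 0.33, and the mean over its probes was -0.32.

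Among 9 measured genes of supply and transport the median was -0.20. The range ran from *Slc25a2*, a mitochondrial ornithine carrier that was not well above background in the knockout pool and so has a bound of -0.96, to *Slc7a3*, a cationic amino acid transporter, with 0.58. *Slc25a2* depended on the processing, from -0.21 with normexp background correction to -2.10 with no filter on dim probes, and was at least 2-fold lower under 5 of the 9 other settings that gave it a value. *Slc7a1*, the widely expressed arginine transporter, read 16472 and 13242, a difference of -0.03, and *Slc3a2*, the heavy chain of several amino acid transporters, gave 0.51. *Otc* and *Nags*, enzymes of the liver urea cycle, were not well above background on either array.

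In the remaining lists no gene reached 2-fold. The 9 measured genes of polyamine synthesis and the methionine cycle had a median of -0.18 and ran from -0.56 for *Mtap*, which salvages a by-product of polyamine synthesis, to 0.28 for *Mat2a*, which makes S-adenosylmethionine. *Oaz1* and *Oaz2*, the antizymes that send ornithine decarboxylase to degradation, each gave -0.21, *Azin2* gave -0.24, and *Oaz3*, not well above background in wild-type skin, had a bound of 0.57. The 4 genes of eIF5A hypusination, a modification made from spermidine, had a median of 0.07, from -0.29 for *Eif5a2* to 0.13 for *Dohh*.

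**Figure D3:**
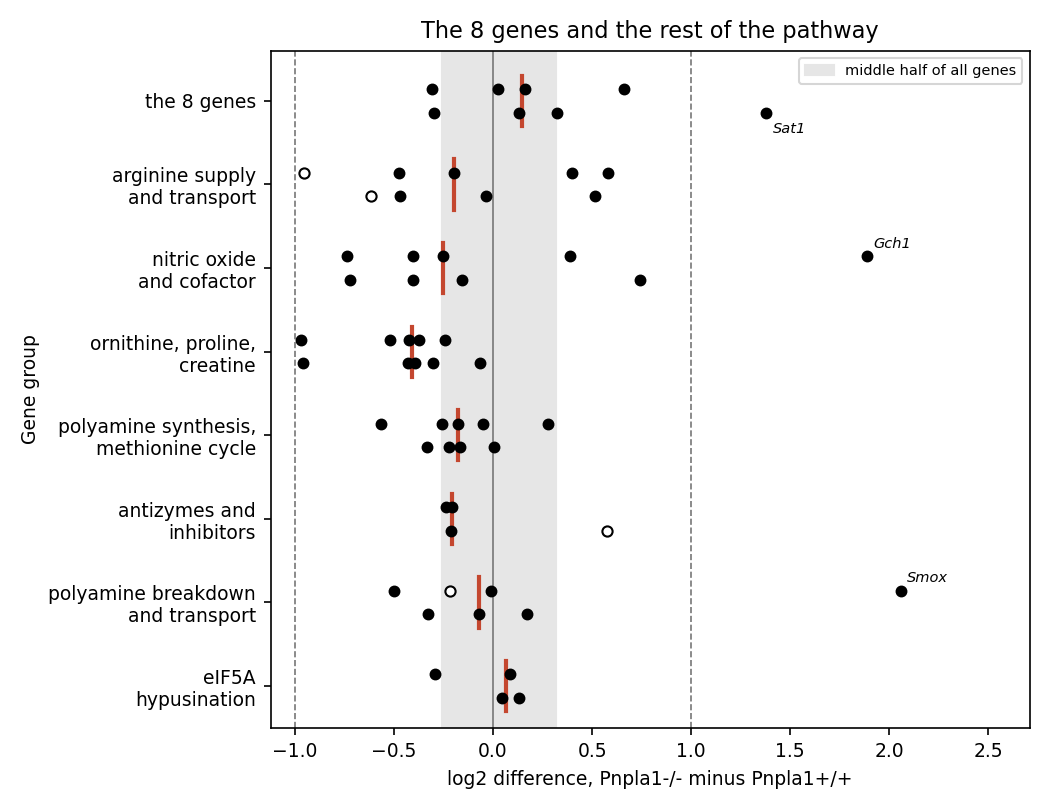
Log2 difference, *Pnpla1*-/- minus *Pnpla1*+/+, of each gene in the set of 8 and in 7 other pathway lists, with open circles for bounds, vertical bars for list medians, dashed lines at 2-fold and the middle 50% of all genes shaded. The 3 genes past 2-fold are named, and the ornithine, proline and creatine list lies below 0 throughout with a median of -0.41.

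Cell types that use arginine were followed by marker lists on the same arrays. The labelled tissue was borne out by its markers, since keratin genes of the epidermis were bright on both arrays, with *Krt5* at 220487 in wild-type and 210699 in knockout skin. Genes of dermis and muscle were bright as well, with *Col1a2* at 275482 and 201776 and *Acta1* at 143228 and 121934, so that the pools held more than epidermis. The 8 keratinocyte markers had a summed intensity of 870107 and 867273 and a median difference of 0.18, or -0.10 without scaling and -0.25 with spike-in centring, and *Krt14* (1.35, or 0.92 with spike-in centring) and *Dsg3* (1.82) were past 2-fold. Of the 4 hyperproliferative keratinocyte markers, keratins found in wounded or thickened epidermis, 3 were at least 2-fold higher, *Krt6a* by 6.96, *Krt6b* by 7.20 and *Krt16* by 4.13 on the log2 scale, while *Krt17* gave 0.65, and their summed intensity was 95998 and 713497.

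Leukocyte markers were higher in part. Of 8 macrophage markers 3 were at least 2-fold higher, *Fcgr1* (1.42), *Adgre1* (1.24) and *Cd14* (1.02), and the median was 0.76. The brightest probe of the list, that of *Csf1r*, read 14484 and 18988 (0.67), *Mertk* was lowest at 0.11, and the summed intensity was 26140 and 35969. Of 6 markers of alternatively activated macrophages 3 were at least 2-fold higher, *Chil3* (2.25), *Clec10a* (1.37) and *Cd163* (1.13), and the median lay on the 2-fold mark. *Retnla*, a classical marker of this state in the mouse, was dim at 50.6 and 37.5 (-0.15), the brightest probe, that of *Mgl2*, gave 0.36, and the summed intensity was 52533 and 62721. *Cd163* was dim too, at 55.4 and 100. With spike-in centring *Fcgr1* gave 0.99, *Adgre1* 0.82 and *Cd14* 0.59, and of the second list only *Chil3* stayed past 2-fold at 1.83. *Cd14* was also under 2-fold with median scaling (0.95), without scaling (0.74) and with normexp (0.92), *Adgre1* without scaling (0.96), and *Cd163* without scaling (0.85), with quantile normalization (0.997) and with normexp (0.73).

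Of 8 neutrophil markers 4 were at least 2-fold higher, *Mmp8* (4.63), *Mpo* (4.35), *Ngp* (3.36) and *Cxcr2*, which was not well above background in wild-type skin and was at least 59.8-fold higher, and the median was 1.89. That median was 1.32 with normexp background correction and 0.42 over the genes measured on both arrays, which leaves out *Cxcr2*. With normexp *Cxcr2* gave 4.31, *Mmp8* 3.69, *Mpo* 2.98 and *Ngp* 2.24. In wild-type skin *Mpo* read 32.3, *Ngp* 50.5 and *Mmp8* 59.5, not far above the smallest signal still called above background there, 23.9. The brightest probe, that of *Csf3r*, read 89901 and 76226 (0.04). *Itgam* read 11846 and 9569 (-0.03) with its brightest probe, while its dimmer probes gave 1.14 and 2.84. *Ly6g* gave 0.42 and *Elane* 0.05. A dimmer *Mpo* probe, not well above background in wild-type skin, had a bound of 1.87. The summed intensity, not scaled between arrays, was 103493 and 90631, of which *Csf3r* alone gave 89901 and 76226. In these 3 lists every marker but *Cxcr2* was well above background on both arrays with its brightest probe. The part of leukocytes and of hyperproliferative keratinocytes in the differences of *Nos2* and *Sat1* was not tested.

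Most hair follicle markers were lower. Of 8, 7 were below 0 and *Dsc3* gave 0.42, or -0.0070 with spike-in centring. *Krt35* (-1.33), *Krt27* (-1.10), *Shh* (-1.10) and *Lef1* (-1.01) were at least 2-fold lower, although *Shh* gave -0.87 with normexp and *Lef1* -0.99 as the mean over its probes. Without scaling 6 of the 8 were at least 2-fold lower, and with spike-in centring 7. The median was -0.93. The summed intensity, not scaled between arrays, was 158138 in wild-type and 69177 in knockout skin, of which *Krt71* alone gave 84119 and 39193. Their part in the lower *Srm* and *Sms* was not tested. Endothelium (6 markers, median 0.35, or -0.08 with spike-in centring, *Vwf* at 1.35, or 0.93 with spike-in centring), fibroblasts (6, -0.07), adipocytes (4 of 5 measured, 0.08) and skeletal muscle (5, 0.05) held no other marker past 2-fold.

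**Figure D4:**
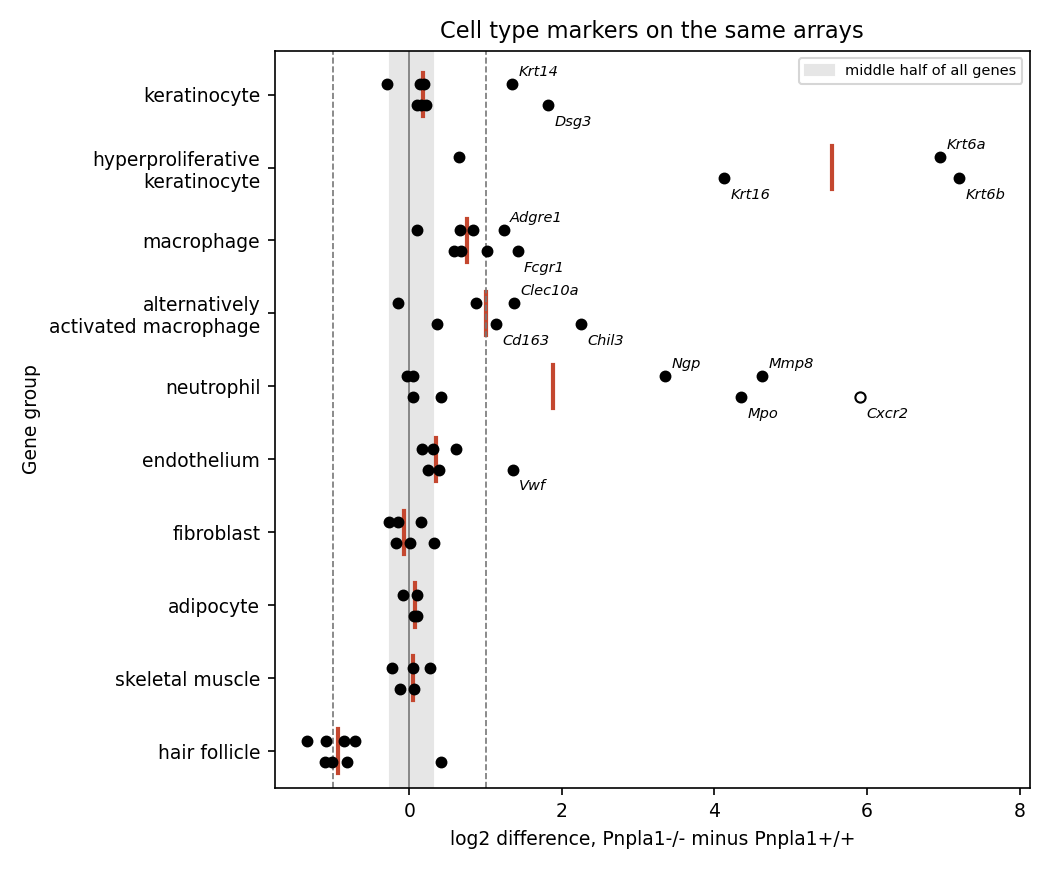
Log2 difference, *Pnpla1*-/- minus *Pnpla1*+/+, of each marker gene by cell type, with an open circle for a bound, vertical bars for medians, dashed lines at 2-fold and the middle 50% of all genes shaded. Markers of hyperproliferative keratinocytes reach 7.20 and those of neutrophils range from -0.03 to 5.90 (most genes higher by 2-fold are named), while 4 hair follicle markers lie past 2-fold on the low side.

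The size of every difference depended on how the arrays were put on 1 scale. The 8 spike-in probes, RNA added in equal amount to each labelling, had a mean difference of 0.43 after scaling to the 75th percentile, so that centring on them lowers every gene by that amount. Over the 10 other settings *Sat1* ranged from 0.95 to 1.38, under 2-fold with spike-in centring alone, and *Nos2* ranged from 0.24 to 0.66, without change of sign. *Smox* (1.63 to 2.06) and *Gch1* (1.28 to 1.89) stayed past 2-fold.

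**Figure D5:**
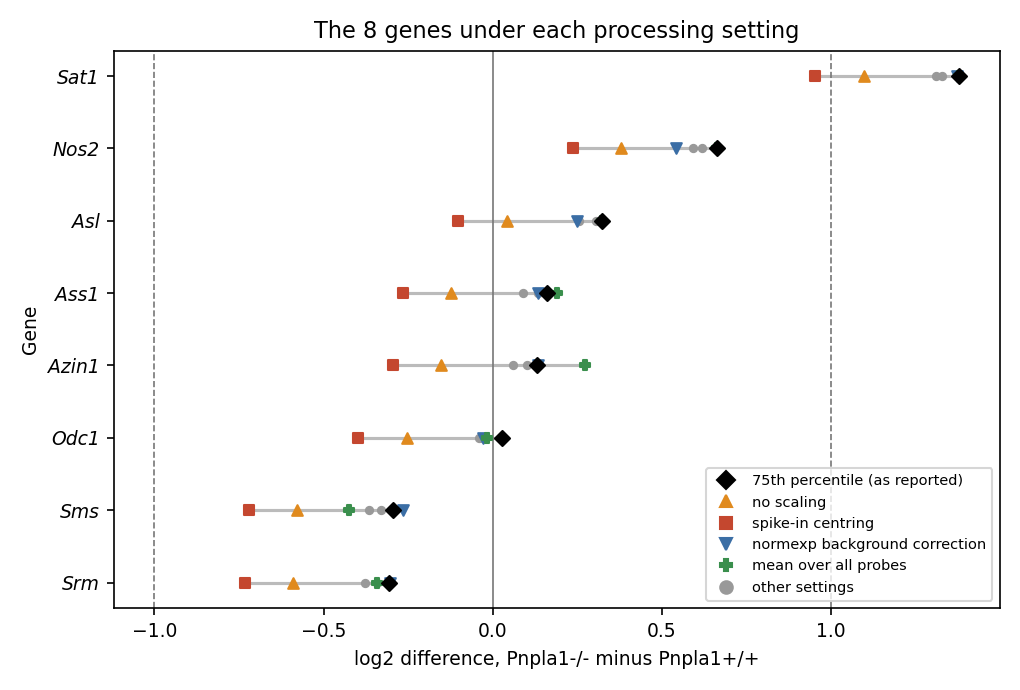
Log2 difference, *Pnpla1*-/- minus *Pnpla1*+/+, of the 8 genes as reported (diamonds) and under 10 other settings, with a line over each gene's range and dashed lines at 2-fold. *Sat1* lies past the dashed line except with spike-in centring at 0.95, and *Asl*, *Ass1*, *Azin1* and *Odc1* lie on both sides of 0.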

How the data were processed

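Total RNA of skin from 6 newborn mice per genotype was pooled and hybridized to 1 Agilent 1-colour array each. The authors scanned the arrays, read the scans with Feature Extraction 11.5.1.1 and deposited, per spot, the processed intensity (background-subtracted and detrended within the array), mean and local background intensities, and flags. A second table deposited by the authors holds, for each probe, a ratio: the same processed intensity after division by 2109 (wild type) or 1734 (knockout).

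From the intensities, log2 of the processed signal minus log2 of the array's 75th percentile over non-control spots was calculated (Python 3.11.15, pandas 2.3.3, numpy 2.4.6). Outlier-flagged spots (138 and 82) were left out, repeated spots averaged on the log2 scale, and the brightest probe taken per gene. Where only 1 array showed a gene well above background, its difference is a bound. The dim side was then set to its own signal or to the smallest one still called above background there (23.9 for wild type, 21.7 for knockout), whichever was higher. Of 30133 genes, 20680 were measured on both arrays, 1694 had a bound and 7743 were below on both. Probe names were updated through RefSeq genes of GRCm38.p6, by accession for 27508 probes, by symbol for 3544 and by older symbol for 404, and 7973 kept the name in the files. Probe positions come from the scanner files, which use mm9, and exon annotation was not used.

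Genes were counted at 2-fold. All 8 genes were named, and of other lists the genes past 2-fold and those that set a list's range. *Slc7a1*, *Slc3a2*, *Nos3*, *Ddah2*, *Agmat*, *Oaz1*, *Oaz2* and further marker genes were named after their values were seen. The members and lists were chosen with earlier results of these data known, and some genes are not reported here. Alternatives were median scaling, no scaling, spike-in centring, quantile normalization, normexp with offset 50 (limma 3.58.1, R 4.3.3), the deposited ratios, the mean over probes, 2 other filters on dim probes, flagged spots kept, and 1.5-fold and 3-fold marks. A slide term could not be fitted, since both arrays lie on 1 slide with 1 per genotype. The computation was tested on simulated data.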

Additional observations from a re-analysis of the deposited data

How the results depend on the processing

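Over the 10 settings that give values, 4 of the 8 genes kept their sign, and *Sat1*, the 1 gene past 2-fold, stayed so in all but spike-in centring (0.95). Median scaling, no scaling and spike-in centring lower every gene, so they could turn the sign of positive differences only. The median of the 8 genes was 0.14 as reported, -0.14 without scaling and -0.28 with spike-in centring, settings that moved the median of all genes to -0.28 and -0.43, so that differences are to be read relative to those shifts. No filter on dim probes moved that median to 0.10. Of the 8 genes, 1 was at least 2-fold higher as reported and 0 lower. The number higher was 0 with spike-in centring and 2 at a 1.5-fold mark, and at a 3-fold mark 0 were higher and 0 lower. Over all genes, 6.70% were at least 2-fold higher and 3.04% lower as reported. These shares were 4.47% and 6.37% without scaling, 3.74% and 9.68% with spike-in centring, 4.34% and 1.45% with normexp, and 10.1% and 3.67% with no filter on dim probes, where all 30133 genes were counted. At 1.5-fold they were 13.8% and 9.35%, and at 3-fold 3.06% and 1.02%. Among list medians and gene values given here, by each gene's brightest probe, that were at least as large as the technical SD of 0.09, signs turned without scaling for *Ass1* (-0.12), *Azin1* (-0.15), *Dohh* (-0.15), *Mat2a* (-0.0039), *Mertk* (-0.18) and the keratinocyte marker median (-0.10). With spike-in centring they turned for *Asl* (-0.10), *Ass1* (-0.27), *Azin1* (-0.30), *Dohh* (-0.30), *Dsc3* (-0.0070), *Mat2a* (-0.15), *Mertk* (-0.32), *Mgl2* (-0.063) and the keratinocyte (-0.25) and endothelium (-0.077) marker medians. Both shifts also take the other *Ass1* probe (0.22) and the *Odc1* probe at 0.10 below 0, and spike-in centring the dimmer *Pycr1* probe (0.33). *Dohh* was -0.071 as the mean over its probes and *Retnla* 0.064 with normexp. Of the values smaller than 0.09, those of *Odc1*, *Csf3r* and *Itgam* and the hypusination, adipocyte and skeletal muscle medians also turned under 1 or more settings. *Odc1* was -0.25 without scaling and -0.40 with spike-in centring, *Csf3r* was -0.24 and -0.38, and *Itgam* was 1.32 as the mean over its probes. The medians were -0.22, -0.21 and -0.23 without scaling and -0.36, -0.35 and -0.38 with spike-in centring. Apart from the scalings, whose shift is the same for every gene, the cause was not tested. No paired analysis was possible because each genotype has 1 array. *Retnla*, the dimmest *Azin1* probe and, in wild-type skin, *Cd163*, *Mpo*, *Ngp* and *Mmp8* were dim, and there signal over background limits the reading.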
